A study of Mus musculus with 1615 samples.

Results

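The 9 laminin chain genes Lama2, Lama3, Lama4, Lama5, Lamb1, Lamb2, Lamb3, Lamc1 and Lamc3 were followed across the cell classes of the mouse colon, by mouse. They were chosen by gene symbol, as rows of the count table whose Ensembl identifier maps to that symbol, and they are 9 of 46517 gene identifiers. The series holds 1615 sorted single cells of 11 mice, 2 female and 9 male, each sequenced by Smart-Seq2, which reads cDNA along its whole length and tags no molecules. The cells lay on 13 plates, and the labels name no treatment.

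The mice carried fluorescent reporters of 5 lines, and the labels give each of them an age of 8 to 30 weeks. The dual line ACTA2GFP:CSPG4dsRED gave 1106 cells, from the females 20GG79:1 (22.2% of all cells) and 20GG95:3 (31.3%) and the male 20GG79:6 (14.98%). The PDGFRbGFP mice were the males 17E61:24, 19CB4:5 and 18CB155:7, the PDGFRaH2bGFP mice were the males 18CB109:10 and 18CB39:3, the CSPG4dsRED mouse was the male 19CB27:3, and the ACTA2GFP mice were the males 19CB38:5 and 19CB34:7. The reporter names point to Acta2, Cspg4, Pdgfrb and Pdgfra, genes of mural and stromal cells, but the sources used here give no sort gates. The labelled tissue is colon, although the dissociation protocol speaks of hearts. The design text mentions male animals only, whereas the labels make 2 of the 3 dual-line mice female, among them both that gave the vascular smooth muscle-like sums. Line and cell class go together, because every pericyte and muscle cell came from the dual line, so differences between classes were tested only within mice. Levels, shares and their overlap are described across all mice, where line and class cannot be told apart.

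Laminins are the glycoproteins that assemble first in a basement membrane, the sheet of matrix under epithelia and endothelia and around each muscle cell. Each is a heterotrimer of an alpha, a beta and a gamma chain, which join inside the cell, and is named after its chain numbers. Laminin-211 (LM-211) thus holds the alpha 2, beta 1 and gamma 1 chains. The alpha chain carries most of the binding sites for integrins and dystroglycan. Laminin-211 is known from muscle and nerve, and laminin-411 and laminin-511 from vessels. RNA shows which chains a cell could make, not which trimers it secreted.

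Clustering gave 22 clusters, and 21 of them were named after 9 classes by marker genes, so the classes are written as "-like". The 546 visceral smooth muscle-like cells were 33.8% of the whole. Blood endothelium-like cells made up 22.1% and fibroblast-like cells 13.4%. The mural cells were 50, 12 and 90 pericyte-like cells of 20GG79:1, 20GG79:6 and 20GG95:3 and 16 and 94 vascular smooth muscle-like cells of 20GG79:1 and 20GG95:3. There were 80 lymphatic endothelium-like, 57 epithelium-like, 42 glia-like and 30 immune-like cells. A cluster of 25 cells of 20GG79:6 stayed unnamed, with summed marker levels of 6648 CPM for fibroblasts, 5447 CPM for visceral muscle and 4880 CPM for pericytes. The median cell held 194180 gene counts, between a lowest of 45388 and a highest of 1046988. Of all cells, 82 reached the usual level of another class for at least 2 of its markers. The laminin genes played no part in the clustering.

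A level is given in CPM, the depth-scaled unit of counts, from the counts summed over the cells of 1 class in 1 mouse, for mice with at least 5 such cells. The number of mice was 6 for blood endothelium, 5 for lymphatic endothelium, 4 each for fibroblasts and epithelium, 3 each for visceral smooth muscle and pericytes, and 2 each for vascular smooth muscle, glia and immune cells. Shares of chains and sums by kind of chain are given per kilobase (kb) of exon length. The 10 CPM level for trimers, summed marker levels and levels listed side by side are in CPM, without regard to gene length. Spread between mice is given as the SD. Reads were not tied to single molecules before PCR. Intervals on shares of cells pool the cells of all mice of a class. They cover counting error only and leave out the spread between mice.

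The beta chain genes Lamb1 and Lamb2 gave the widest opposite shift between the muscle classes, so their promoters are shown. Lamb1 lies on chromosome 12 from 31265234 to 31329644 and Lamb2 on chromosome 9 from 108479736 to 108490530, both on the plus strand (GRCm38). The sequences run from 250 bases before to 50 bases after the RefSeq transcription start (GRCm38.p6), at chr12:31265043-31265342 for Lamb1 and chr9:108479612-108479911 for Lamb2. Capitals mark a GC box, GGGCGG or its reverse complement.
Lamb1: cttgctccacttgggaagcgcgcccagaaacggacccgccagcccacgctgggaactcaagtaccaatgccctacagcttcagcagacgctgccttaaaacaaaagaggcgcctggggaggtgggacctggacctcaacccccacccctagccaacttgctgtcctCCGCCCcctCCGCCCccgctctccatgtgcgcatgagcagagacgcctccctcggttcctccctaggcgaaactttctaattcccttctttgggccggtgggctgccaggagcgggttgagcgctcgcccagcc
Lamb2: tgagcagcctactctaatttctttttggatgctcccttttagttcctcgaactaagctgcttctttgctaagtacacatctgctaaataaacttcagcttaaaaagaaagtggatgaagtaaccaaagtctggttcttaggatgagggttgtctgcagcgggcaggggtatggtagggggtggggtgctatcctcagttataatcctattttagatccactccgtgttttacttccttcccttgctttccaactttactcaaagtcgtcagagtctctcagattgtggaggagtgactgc
The Lamb1 window held 2 GC boxes and had a GC content of 63.7%. The Lamb2 window held 0 GC boxes and had a GC content of 44%. On either strand, 35.7% of the 32851 RefSeq promoters of this length held a GC box, and 37.4% held the CCAAT motif, which had 1 match in the Lamb1 window. The promoter set used here covered 5 of the 9 genes. This count does not show whether RefSeq lists a promoter for the other genes.

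**Figure D1:**
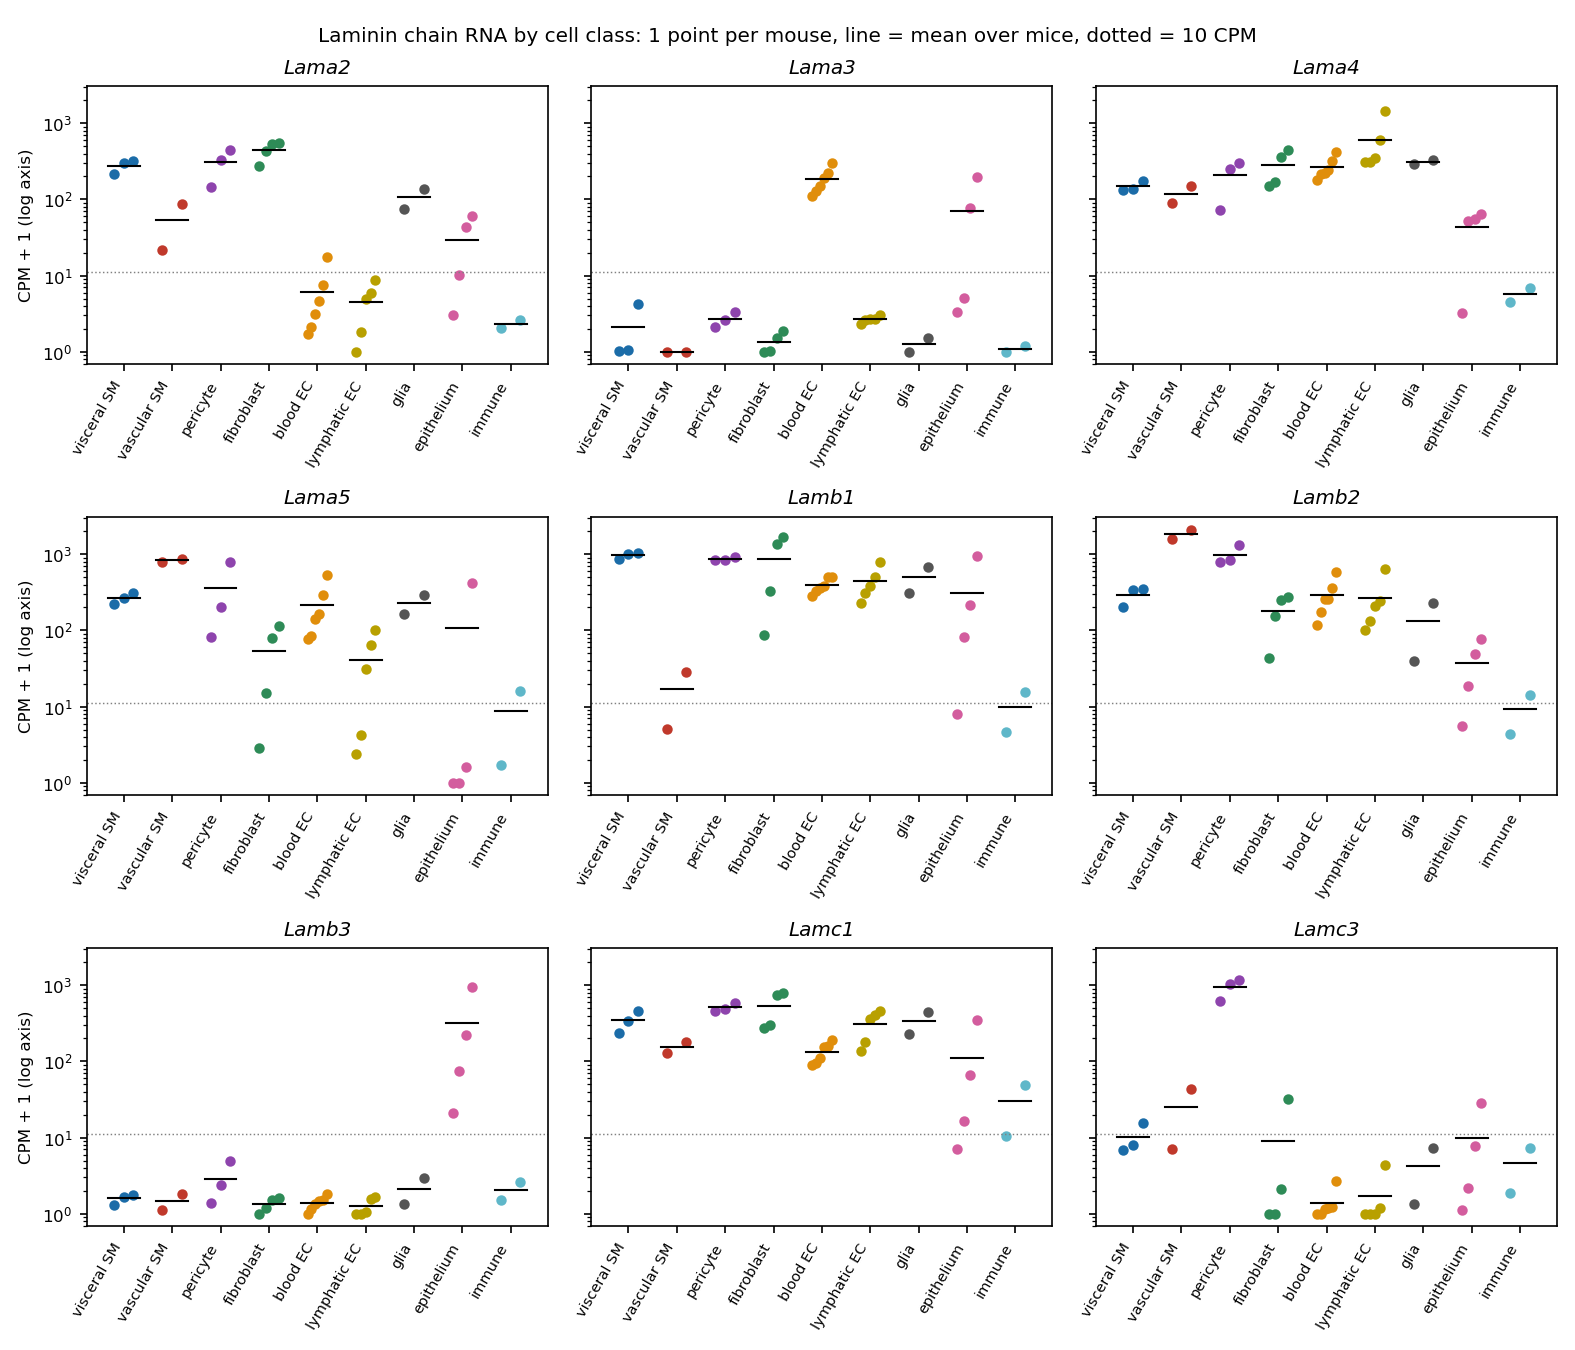
Level of each laminin chain gene in each cell class, as CPM of the summed counts on a log axis of CPM + 1, 1 point per mouse with at least 5 cells and a bar at the mean. Lamc3 stands apart in pericyte-like cells (625.04 to 1155 CPM), Lama3 runs from 110.6 to 302.6 CPM in blood endothelium-like cells, where 1 epithelium-like sum overlaps it, and Lamb1 is at 27.8 and 4.09 CPM in vascular smooth muscle-like cells.

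Among the alpha chains, Lama2 (alpha 2, the laminin chain of muscle and peripheral nerve) was highest in fibroblast-like cells. It stood at 552 CPM in 20GG79:1, 527 CPM in 20GG79:6, 429.4 CPM in 19CB38:5 and 277.4 CPM in 19CB4:5. Pericyte-like cells had 327.2, 143.995 and 443.4 CPM and visceral smooth muscle-like cells had 317.3, 213.5 and 300.2 CPM of Lama2, in 20GG79:1, 20GG79:6 and 20GG95:3. These 3 classes overlapped. Glia-like cells followed below them at 136.01 CPM in 19CB27:3 and 74.02 CPM in 20GG79:6. Over all 42 glia-like cells, fibroblast markers summed to 3438 CPM and glia markers to 5449 CPM, and their part in Lama2 was not tested. Vascular smooth muscle-like cells had 85.3 and 20.4 CPM in 20GG79:1 and 20GG95:3. Lama2 was low in both endothelia, at 0.721 to 16.8 CPM in blood and 0 to 7.75 CPM in lymphatic endothelium-like cells. The epithelium-like sums ran from 1.998 to 59.01 CPM and the immune-like sums were 1.05 and 1.60 CPM.

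Lama3 (alpha 3, a chain of laminin-311 and laminin-321 among the trimers considered below) was found in all 6 sums of blood endothelium-like cells. Its levels there were 127.9 CPM in 17E61:24, 302.6 CPM in 18CB109:10, 187.9 CPM in 18CB39:3, 148.3 CPM in 19CB27:3, 110.6 CPM in 19CB4:5 and 224.3 CPM in 20GG79:6. Lymphatic endothelium-like cells had 1.29 to 2.01 CPM, so the endothelia did not overlap. Epithelium-like cells ranged from 2.35 to 197.4 CPM, with high values in 19CB27:3 (197.4 CPM, above the blood endothelium-like cells of that mouse) and 18CB155:7 (75.02 CPM). The pericyte, visceral muscle, fibroblast, glia and immune sums all lay between 0 and 3.22 CPM. Of the 16 and 94 vascular smooth muscle-like cells 0 had a count, which allows a share of cells of up to 3.30% (upper exact 95% limit over both mice). After each cell was thinned to 40000 counts, 41.5% of blood endothelium-like cells (95% interval 36.3 to 46.8, 66.4% unthinned) and 12.5% of lymphatic endothelium-like cells (6.16 to 21.8, 31.2% unthinned) had a Lama3 count. In visceral smooth muscle-like cells, with Lama3 near 0 CPM, the thinned share was 1.10%, and median gene counts per cell were 237402 in blood endothelium, 207658 in lymphatic endothelium and 179226 in visceral muscle.

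Lama4 (alpha 4, a chain of vessels and mesenchyme with a short N terminus) was the most widespread alpha chain. Lymphatic endothelium-like cells had 350.7 CPM in 17E61:24, 1454 CPM in 18CB109:10, 608 CPM in 18CB39:3, 308.2 CPM in 19CB27:3 and 312.6 CPM in 20GG79:6. The glia-like sums were 287.7 and 329.4 CPM, the fibroblast-like sums ran from 148.3 to 447.4 CPM and the blood endothelium-like sums from 178.5 to 414.8 CPM. Neighbours in the order of levels overlapped from lymphatic endothelium down to vascular smooth muscle, where Lama4 stood at 88.002 and 147.8 CPM. Pericyte-like cells had 72.2 to 296.7 CPM and visceral smooth muscle-like cells 133.8 to 173.2 CPM. Below them came epithelium-like cells (2.23 to 62.7 CPM) and immune-like cells (3.49 and 5.85 CPM).

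Lama5 (alpha 5, the major alpha chain of mature basement membranes) was highest in vascular smooth muscle-like cells, at 799 CPM in 20GG79:1 and 875 CPM in 20GG95:3. The pericyte-like sums were 79.9 CPM in 20GG79:1, 204.6 CPM in 20GG95:3 and 796 CPM in 20GG79:6. Only the 20GG79:6 value came close to the vascular cells, and it was 488.98 CPM without the cells that held markers of another class. Visceral smooth muscle-like cells had 218.8, 262.3 and 305.2 CPM and glia-like cells 161.1 and 294.01 CPM. Blood endothelium-like cells ranged from 77.05 CPM in 17E61:24 to 537 CPM in 20GG79:6. The fibroblast-like sums ran from 1.85 to 113.7 CPM, the lymphatic endothelium-like sums from 1.36 to 100.2 CPM, and the immune-like sums were 0.698 and 14.9 CPM. Lama5 was near 0 in 3 epithelium-like sums (0 to 0.588 CPM) and at 419.7 CPM in that of 20GG79:6, where fibroblast markers summed to 7096 CPM, against 96.5 CPM in 17E61:24. The part of these other markers in the Lama5 value was not tested.

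Per kb of exon length, each class had its own mix of alpha chains. Lama5 made up 84.9% ± 0.192 (SD, n = 2 mice) of alpha chain RNA in vascular smooth muscle-like cells, and Lama4 made up 91.1% ± 10.6 (n = 5) in lymphatic endothelium-like cells. Fibroblast-like cells were split between Lama2 (51.1% ± 11.6) and Lama4 (39.9% ± 4.78, n = 4). Blood endothelium-like cells used 3 chains, with mean shares of 39.6% ± 14.04 for Lama4, 30.0% ± 9.86 for Lama3 and 29.8% ± 16.5 for Lama5 (n = 6). The mix varied by mouse, with Lama4 at 61.9% in 19CB27:3 and Lama5 at 54.3% in 20GG79:6. Visceral smooth muscle-like cells held 43.9% ± 6.63 Lama5, 32.1% ± 4.77 Lama2 and 23.4% ± 3.69 Lama4 (n = 3). In pericyte-like cells the mix differed between mice, with a Lama5 share of 14.5% to 82.4%. The order of the visceral shares depended on the gene length used. By the longest transcript they were 37.4% Lama2, 31.99% Lama4 and 30.3% Lama5, and the Lama5 share of vascular smooth muscle was 74.6%. Lama4 made up 55.1% of the blood endothelium-like mix by that length, with Lama5 at 22.2% and Lama3 at 21.9%.

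**Figure D2:**
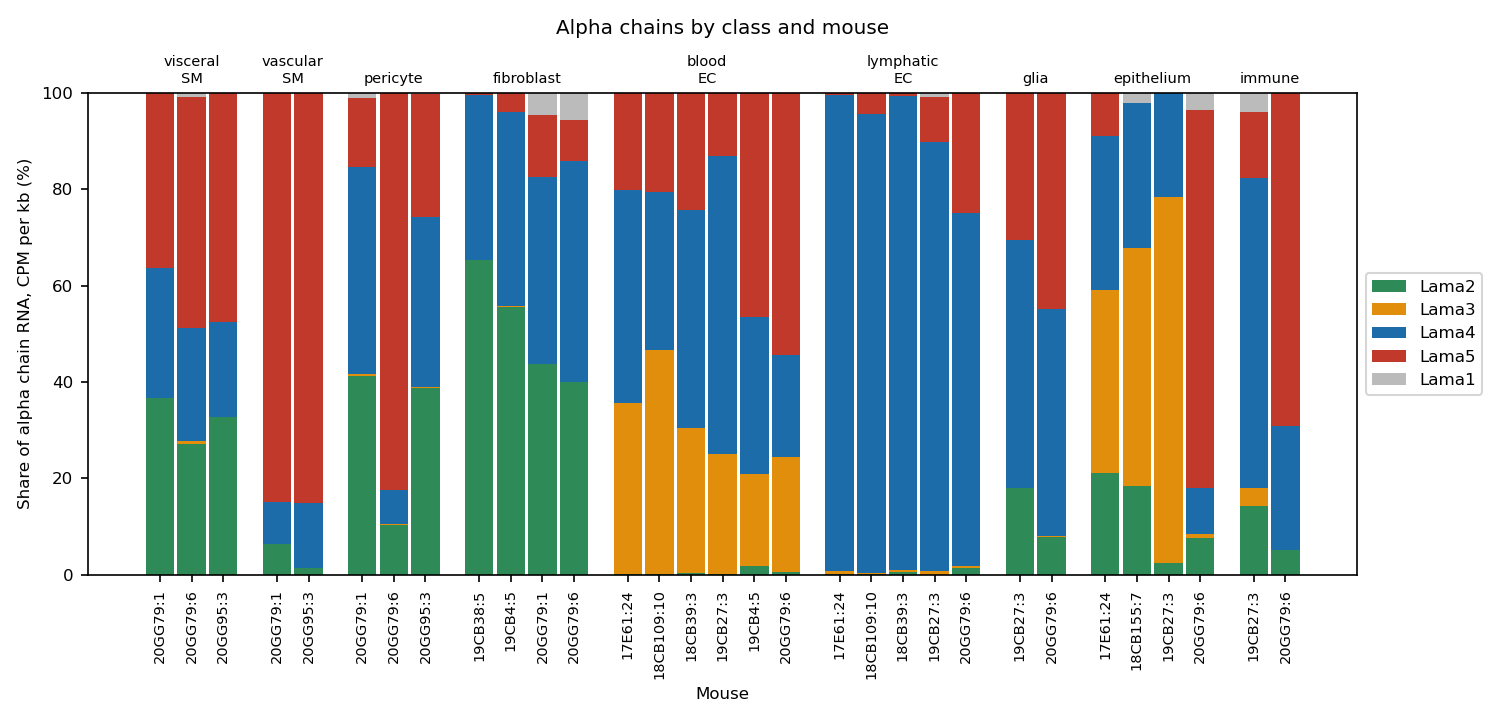
Share of each alpha chain in the summed alpha chain RNA, in percent of CPM per kb of exon length, with 1 stacked bar per mouse, grouped by class, and Lama1 in grey. Lama5 fills most of both vascular smooth muscle-like bars (mean 84.9%) and Lama4 most of the lymphatic endothelium-like bars (mean 91.1%), while Lama3 has a mean share of 30.0% in blood endothelium-like cells.

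The beta chains separated the mural classes. Lamb1 (beta 1, the most widely used beta chain) stood, for visceral smooth muscle-like cells, at 992, 1032 and 859.9 CPM in 20GG79:1, 20GG79:6 and 20GG95:3. In pericyte-like cells of the same mice it was at 838, 921 and 835 CPM. Vascular smooth muscle-like cells had 27.8 CPM in 20GG79:1 and 4.09 CPM in 20GG95:3, below every sum of the other mural classes. Fibroblast-like cells ranged widely, at 1348 CPM in 20GG79:1, 1660.4 CPM in 20GG79:6, 325.4 CPM in 19CB4:5 and 86.7 CPM in 19CB38:5, the last pair from 5 cells each. Blood endothelium-like cells had 284.7 to 503.4 CPM, lymphatic endothelium-like cells 228.9 to 794 CPM and glia-like cells 310.8 and 677 CPM. Epithelium-like cells spread from 7.05 to 949 CPM and immune-like cells had 3.66 and 14.4 CPM. A Lamb1 count was seen in 22.7% of vascular smooth muscle-like cells after thinning (15.3 to 31.7, 57.3% unthinned). The share was 82.8% (79.4 to 85.9) in visceral smooth muscle-like and 99.5% (97.4 to 99.99) in fibroblast-like cells.

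Lamb2 (beta 2, known from the neuromuscular synapse, the kidney filter and vessel walls) ran the other way. Vascular smooth muscle-like cells had 1590.3 CPM in 20GG79:1 and 2098 CPM in 20GG95:3. Pericyte-like cells came next with 791, 1303 and 827 CPM in 20GG79:1, 20GG79:6 and 20GG95:3. Neither class overlapped its neighbour in the order of levels. Visceral smooth muscle-like cells had 203.4, 334.5 and 344.2 CPM, blood endothelium-like cells 117.9 to 585 CPM, lymphatic endothelium-like cells 101.7 to 632 CPM and fibroblast-like cells 41.9 to 275.5 CPM. Lower levels were found in glia-like (38.5 and 225.8 CPM), epithelium-like (4.59 to 75.6 CPM) and immune-like cells (3.32 and 13.3 CPM).

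Lamb3 (beta 3, a chain of epithelial basement membranes) was highest in epithelium-like cells. Its levels in epithelium-like cells were 73.7 CPM in 17E61:24, 942 CPM in 18CB155:7, 19.9 CPM in 19CB27:3 and 221.1 CPM in 20GG79:6. Every sum of every other named class lay between 0 and 3.89 CPM, below all 4 epithelial sums. After thinning, 36.8% of epithelium-like cells (24.4 to 50.7) had a count, against 0% to 3.29% of the cells in the other classes.

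Per kb, Lamb1 made up 0.590% of the summed Lamb1 and Lamb2 RNA in vascular smooth muscle-like cells (0.119% and 1.06% in the 2 mice). The share was 35.9% ± 4.99 in pericyte-like (n = 3), 48.05% ± 16.9 in blood endothelium-like (n = 6) and 53.7% ± 14.7 in lymphatic endothelium-like cells (n = 5). It was 66.96% ± 7.33 in visceral smooth muscle-like cells (n = 3). The fibroblast-like share varied from 17.7% to 86.8% over 4 mice.

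**Figure D3:**
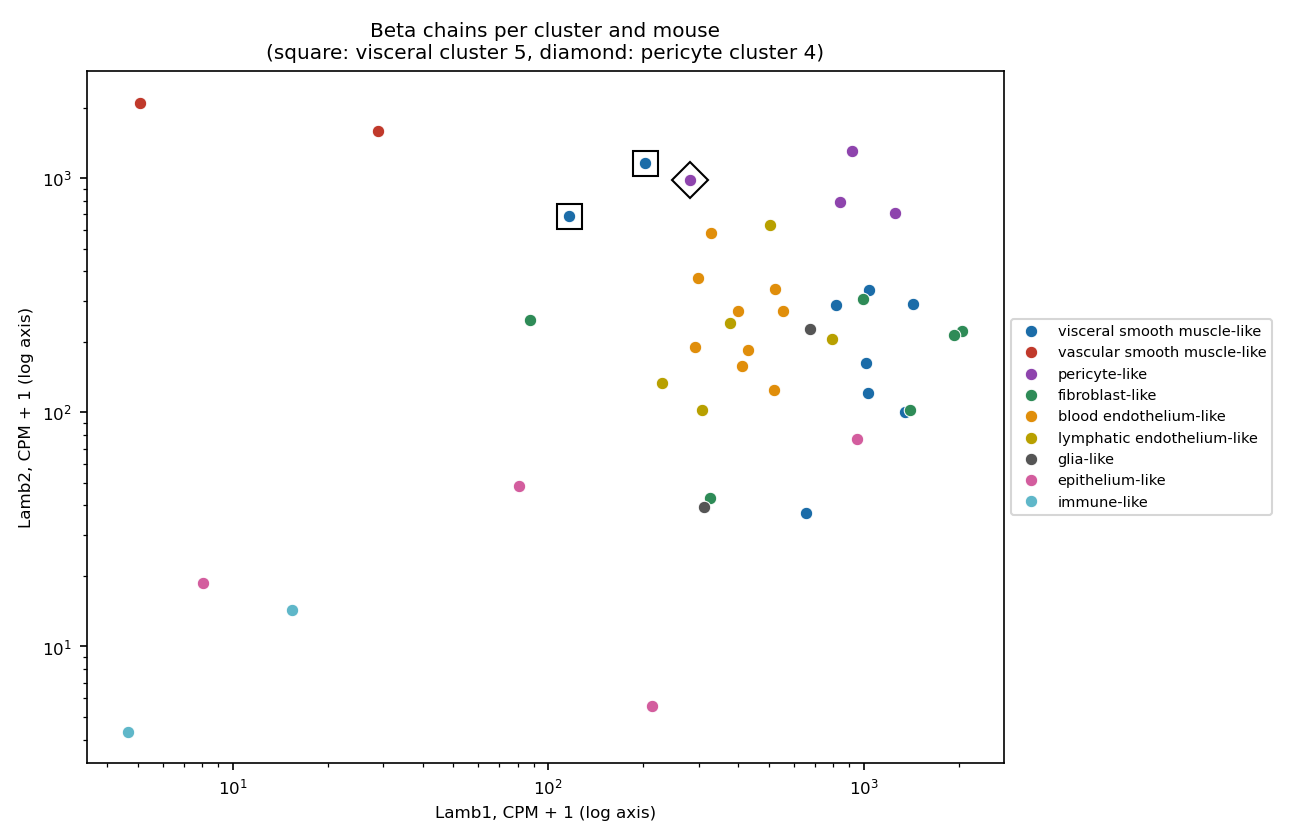
Lamb2 against Lamb1, each as CPM + 1 of the summed counts on log axes, 1 point per mouse and cluster, coloured by class. Vascular smooth muscle-like points lie at the top left (by mouse, Lamb1 4.09 and 27.8 CPM, Lamb2 2098 and 1590.3 CPM), and open squares and the diamond mark visceral cluster 5 and pericyte cluster 4, which lie between them and the rest of their classes in Lamb1.

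Lamc1 (gamma 1, the gamma chain of most laminins) was found at 10 CPM or more in every sum of the stromal, muscle, glial and endothelial classes. Fibroblast-like cells had 270.1 to 793 CPM, with 748 CPM in 20GG79:1 and 793 CPM in 20GG79:6. Pericyte-like cells had 462.6, 577 and 489.7 CPM and visceral smooth muscle-like cells 341.95, 457.8 and 235.4 CPM in 20GG79:1, 20GG79:6 and 20GG95:3. The pericyte and visceral sums did not overlap, but their nearest values were 462.6 and 457.8 CPM. The other sums were 137.2 to 464.2 CPM in lymphatic endothelium-like, 231.2 and 450.1 CPM in glia-like, 129.7 and 176.7 CPM in vascular smooth muscle-like and 87.6 to 191.8 CPM in blood endothelium-like cells. Epithelium-like cells had 6.12 to 351.5 CPM. Lamc1 was the highest of the 9 chains per kb in the immune-like cells of 19CB27:3, at 48.2 CPM, and stood at 9.57 CPM in those of 20GG79:6.

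Lamc3 (gamma 3, a chain known from nerve, retina and brain vessels) was highest in pericyte-like cells. Pericyte-like cells had 625.04 CPM in 20GG79:1, 1155 CPM in 20GG79:6 and 1042 CPM in 20GG95:3. The highest sum of another named class was 42.4 CPM, in vascular smooth muscle-like cells of 20GG95:3, where the smaller of that mouse's plates gave 73.4 CPM and the larger 3.82 CPM. The 25 unnamed cells of 20GG79:6 had 257.7 CPM. Vascular smooth muscle-like cells of 20GG79:1 had 5.99 CPM and visceral smooth muscle-like cells 5.90 to 14.7 CPM. The sums of the other classes lay between 0 and 30.8 CPM. After thinning, 65.1% of pericyte-like cells (56.99 to 72.7, 75.7% unthinned) had a Lamc3 count. The share was 20.9% (13.7 to 29.7) in vascular smooth muscle-like, 6.23% (4.35 to 8.59) in visceral smooth muscle-like and 1.12% (0.306 to 2.84) in blood endothelium-like cells. Per kb, Lamc3 exceeded Lamc1 in pericyte-like cells, at 70.7% ± 5.21 of their sum (64.7% to 74.3%, n = 3 mice).

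Lamc3 lies on chromosome 2 from 31887291 to 31946539, and 6.27% of its exon bases overlap the antisense gene Gm13441. Such overlaps touch 3.86% of the exon bases of Lama2 (Gm48084) and 1.83% of those of Lama3 (Gm29200). The sources used here do not give the strand use in counting, so reads of these stretches cannot be told apart.

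Summed by kind of chain and per kb, mean beta chain RNA exceeded mean alpha chain RNA in every class. Vascular smooth muscle-like cells had 86.5 ± 5.31 CPM per kb of alpha chains, 304.9 ± 57.3 CPM per kb of beta chains and 22.5 ± 8.25 CPM per kb of the gamma chains Lamc1 and Lamc3 (n = 2 mice). Pericyte-like cells had 67.8 ± 18.2, 247.6 ± 51.7 and 216.04 ± 51.9 CPM per kb of alpha, beta and gamma chains (n = 3 mice). These gamma chains were thus the scarcest kind in vascular smooth muscle and the alpha chains in pericytes.

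A known trimer was called possible in a mouse and class where each of its 3 chains reached 10 CPM, and possible in a class where this held in every mouse. Lama1, the remaining alpha chain, was included for this purpose. None of the trimers considered holds the chain of Lamb3, so that gene did not enter the counts. Of 13 known trimers considered, pericyte-like cells could build 9, namely LM-211, LM-213, LM-221, LM-411, LM-421, LM-423, LM-511, LM-521 and LM-523. Visceral smooth muscle-like and glia-like cells could each build 6, which were LM-211, LM-221, LM-411, LM-421, LM-511 and LM-521. The 42 glia-like cells also held fibroblast markers at a summed 3438 CPM, and the part of these in their trimers was not tested. Blood endothelium-like cells could build 6, with LM-311 and LM-321 in place of LM-211 and LM-221. Fibroblast-like cells could build 4 (LM-211, LM-221, LM-411 and LM-421), vascular smooth muscle-like cells 3 (LM-221, LM-421 and LM-521) and lymphatic endothelium-like cells 2 (LM-411 and LM-421). Immune-like cells could build 0 in either mouse. These counts depend on the level asked for. At 10 CPM per kb of exon length pericyte-like cells had 0, fibroblast-like cells 0, glia-like cells 2 and vascular smooth muscle-like cells 1, so the order of the classes was another.

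**Figure D4:**
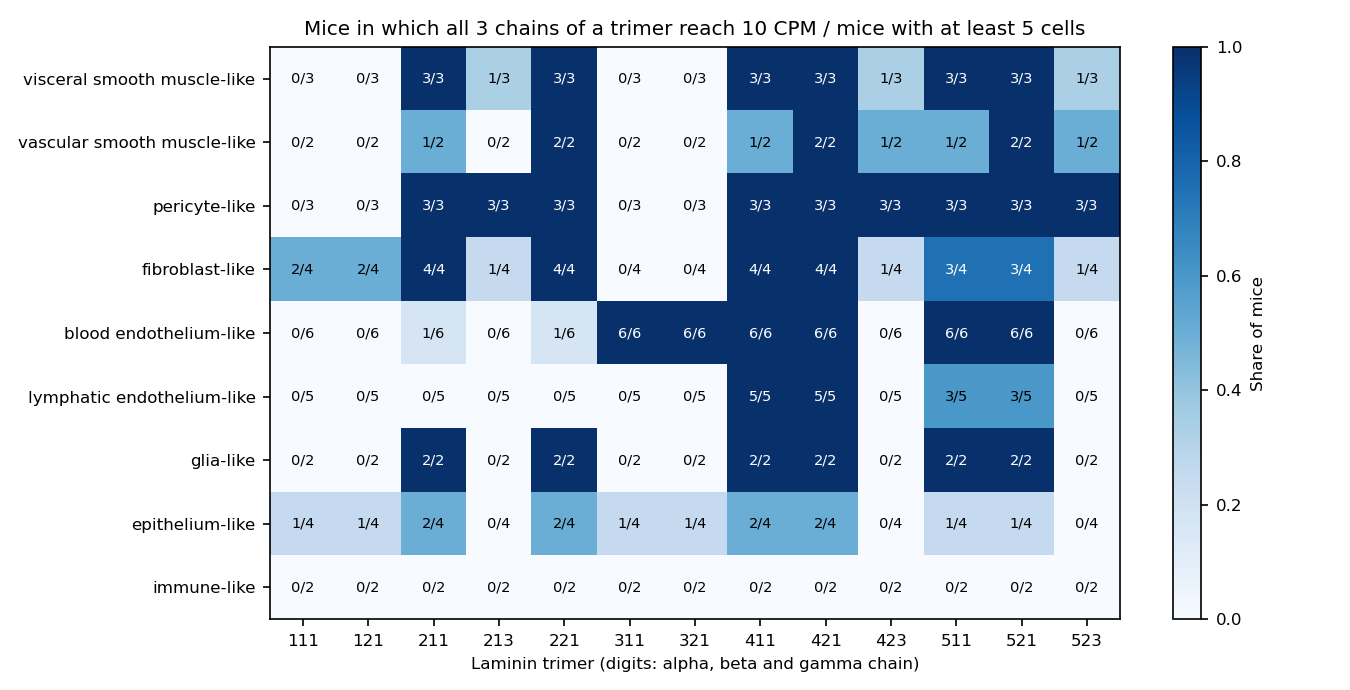
Number of mice in which a class had all 3 chains of a known trimer at 10 CPM or more, over the mice with at least 5 cells, with trimers in columns, classes in rows and a darker colour for a larger share of mice. Pericyte-like cells fill all 3 trimers with gamma 3 (LM-213, LM-423 and LM-523) in 3 of 3 mice, and the immune-like row is 0 throughout.

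Mice of a class differed in the trimers they could build. Of the vascular smooth muscle-like sums, 20GG79:1 had LM-211, LM-411 and LM-511 besides the shared 3, and 20GG95:3 had LM-423 and LM-523. The difference lay in Lamb1 (27.8 against 4.09 CPM) and Lamc3 (5.99 against 42.4 CPM). Lama5 decided lymphatic endothelium-like cells, where LM-511 and LM-521 were possible in 3 of 5 mice. The fibroblast-like cells of 20GG79:1 and 20GG79:6 passed for LM-111 and LM-121 as well, with Lama1 at 33.7 and 43.5 CPM. In the visceral smooth muscle-like cells of 20GG79:6, Lamc3 at 14.7 CPM added LM-213, LM-423 and LM-523, and it was 4.33 CPM without cells holding markers of another class.

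In epithelium-like cells 0 of these trimers were possible in every mouse, and the chains differed from mouse to mouse. Trimers with the chain of Lamb3 were not among those considered, so the 0 does not cover them. The sum of 17E61:24, from 31 cells, held Lamb3 (73.7 CPM) and Lamc1 (15.3 CPM) but all alpha chains at 2.35 CPM or less. Lama3 reached 197.4 CPM in 19CB27:3, where Lamc1 was at 6.12 CPM. The sum of 20GG79:6, 6 cells, had 8 trimers (LM-111, LM-121, LM-211, LM-221, LM-411, LM-421, LM-511 and LM-521) together with the fibroblast markers at 7096 CPM. That of 18CB155:7, 5 cells, had 6, with fibroblast markers at 3525 CPM.

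Chains also had to meet in the same cell, which was counted after thinning to 40000 counts. Among fibroblast-like cells, 86.1% (80.8 to 90.4) had all 3 chains of LM-211 and 84.3% (78.7 to 88.8) those of LM-411. In vascular smooth muscle-like cells LM-521 led with 47.3% (37.7 to 57.02), at 62.5% of 16 cells in 20GG79:1 and 44.7% of 94 cells in 20GG95:3. LM-211, which needs Lamb1, was complete in 3.64% (1.00 to 9.05) of them. Pericyte-like cells had the 3 chains of LM-213 in 40.8% (32.9 to 49.05), in 28 of 50 cells of 20GG79:1, 4 of 12 of 20GG79:6 and 30 of 90 of 20GG95:3. Visceral smooth muscle-like cells had those of LM-213 in 4.03% (2.54 to 6.04) and those of LM-211 in 38.6% (34.5 to 42.9). LM-411 led in lymphatic endothelium-like (43.8%, 32.7 to 55.3), glia-like (38.1%, 23.6 to 54.4) and blood endothelium-like cells (24.1%, 19.7 to 28.9).

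Differences between classes were tested with edgeR's quasi-likelihood test on the sums, with the mouse as a block and Benjamini-Hochberg adjustment over all genes tested. Genes used for clustering are left out of "all genes tested", so neither the shares called nor the medians of all genes cover them. A log2 fold change is given with its SE where the unadjusted p was at most 0.05. The classes were drawn from the same cells that were tested, so the calls describe the classes and cannot show that the classes are real. In comparisons of 2 mice, 1 residual degree of freedom was left, and the SE rests mainly on a spread pooled across genes.

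The first comparison, in 20GG79:1 and 20GG95:3, set the muscle of the gut wall (visceral smooth muscle-like cells) against that of vessels. The visceral cells were higher in Lamb1 (log2 fold change 6.30 ± 0.70, adjusted p = 0.00107) and in Lama2 (2.77 ± 0.52, adjusted p = 0.00127). They were lower in Lamb2 (-2.91 ± 0.28, adjusted p = 2.21e-08) and in Lama5 (-1.82 ± 0.31, adjusted p = 0.000194). Of 8 chains that passed the filter on low counts 4 were called, where 5.56% of all genes tested were called. Their median log2 fold change was 0.37, beside 0.19 over all genes. Lamc1, Lama4, Lamc3 and Lamb3 did not pass. With a spread shared over all classes only the Lamb1 call was kept (adjusted p = 0.0457, range over 13 alternatives 2.71e-38 to 1). Without the block the calls of Lama2 and Lama5 were lost (adjusted p = 0.129 and 0.0544, ranges 5.50e-07 to 1 and 4.52e-05 to 1), and without the smaller plate of 20GG95:3 that of Lama2.

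Pericyte-like cells were set against vascular smooth muscle-like cells in the same pair of mice. Pericytes were higher in Lamb1 (6.06 ± 0.76, adjusted p = 0.0262) and Lamc3 (5.37 ± 0.62, adjusted p = 0.0262) and lower in Lama5 (-2.92 ± 0.41, adjusted p = 0.0337). These were 3 of 9 chains, where 0.648% of all genes tested were called, and the medians were 2.56 for the chains and 0.13 for all genes. Lamb2 (-1.39 ± 0.27, adjusted p = 0.0898), Lama2 (2.97 ± 0.68, adjusted p = 0.158), Lamc1 (1.44 ± 0.37, adjusted p = 0.219) and Lama4 (1.04 ± 0.42, adjusted p = 0.435) did not pass. Lama3 and Lamb3, near 0 CPM in both classes, did not pass either. Each of the 3 calls was lost without either plate of 20GG95:3 and with the shared spread. Without the block, Lamb1 alone was called.

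Pericyte-like cells were set against those of visceral muscle in all 3 dual-line mice. Lamc3 was higher in pericytes by 6.80 ± 0.46 (adjusted p = 0.000724) and Lamb2 by 1.79 ± 0.35 (adjusted p = 0.0420), each in 3 of 3 mice. That made 2 of 9 chains, where 1.42% of all genes tested were called, with medians of 0.67 and -0.25. The other 7 chains had unadjusted p values above 0.05. The Lamb2 call was lost with DESeq2, RLE factors, the coarser clusters and without the block, and both calls were lost with the shared spread (adjusted p = 0.127 for Lamc3 and 0.481 for Lamb2, with ranges of 1.06e-31 to 1 and 0.00319 to 1).

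Fibroblast-like cells could be compared with visceral smooth muscle-like and pericyte-like cells in 20GG79:1 and 20GG79:6. Against visceral muscle 0 of 9 chains were called, where 1.68% of all genes tested were called, while 5 chains had an unadjusted p of at most 0.05 and DESeq2 called 2. Those 5 were Lama4 (1.38 ± 0.28, adjusted p = 0.0954), Lamc1 (0.95 ± 0.20, adjusted p = 0.0997), Lama2 (1.04 ± 0.24, adjusted p = 0.136), Lama5 (-1.35 ± 0.32, adjusted p = 0.146) and Lamb1 (0.56 ± 0.16, adjusted p = 0.217). The medians were -0.34 for the chains and -0.00334 for all genes. Against pericytes, fibroblasts were lower in Lamc3 (-7.27 ± 0.81, adjusted p = 8.92e-16) and in Lamb2 (-2.40 ± 0.57, adjusted p = 0.00566). These were 2 of 8 chains, where 0.86% of all genes tested were called, with medians of -0.53 and 0.34. Both calls were lost without the block (adjusted p = 0.509 for each) and with the shared spread (adjusted p = 0.268 and 0.509), in ranges of 1.91e-17 to 1 for Lamc3 and 0.00532 to 1 for Lamb2. The Lamb2 call was also lost with DESeq2, with RLE factors and without cells holding markers of another class. The pericyte sum of 20GG79:6 came from 12 cells.

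Lymphatic and blood endothelium-like cells were present together in 5 mice of 4 lines. Lama3 was lower in lymphatic cells (log2 fold change -6.81 ± 0.98, adjusted p = 0.00131), in 5 of 5 mice, and was called under all 16 alternatives (adjusted p 1.30e-14 to 0.0339). Leaving out a plate of 20GG95:3 or changing the Leiden resolution repeated the main fit here, so those alternatives could not lose the call. Lama3 was 1 of 7 chains, where 3.69% of all genes tested were called, and the medians were -0.12 for the chains and -0.66 for all genes. Lama5 did not pass (-3.14 ± 1.02, adjusted p = 0.141), and it passed with the shared spread (adjusted p = 0.0499, range 0.0119 to 0.425). Lama4, Lamb1, Lamb2, Lamc1 and Lama2 had unadjusted p values above 0.05. Over all 80 lymphatic endothelium-like cells, all 9 genes of the blood endothelium marker list were at 10 CPM or more. That list summed to 5562 CPM there, beside 13110 CPM for the lymphatic list. Whether lymphatic cells make this RNA themselves was not tested.

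Epithelium-like and blood endothelium-like cells were compared in 17E61:24, 19CB27:3 and 20GG79:6. Lamb3 was higher in epithelium (7.85 ± 1.33, adjusted p = 0.00630) and Lamb2 lower (-3.63 ± 0.73, adjusted p = 0.0140), each in 3 of 3 mice. These were 2 of 9 chains, where 8.22% of all genes tested were called, with medians of -2.36 and -0.19. Lama4 (-3.57 ± 1.01, adjusted p = 0.0590), Lama5 (-4.97 ± 1.67, adjusted p = 0.109) and Lama3 (-4.30 ± 1.65, adjusted p = 0.167) did not pass. The Lamb3 call was kept in all 13 alternatives, and the Lamb2 call was lost without the block (adjusted p = 0.0768, range 0.000131 to 0.0768). Among these alternatives, those on the plates of 20GG95:3 and on the Leiden resolution repeated the main fit and could not lose a call. Blood endothelium against pericytes and glia against fibroblasts shared only 1 mouse, 20GG79:6, and were not tested. In that mouse Lamc3 was at 1.68 CPM in blood endothelium-like and 1155 CPM in pericyte-like cells, and Lama3 at 224.3 and 1.13 CPM.

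**Figure D5:**
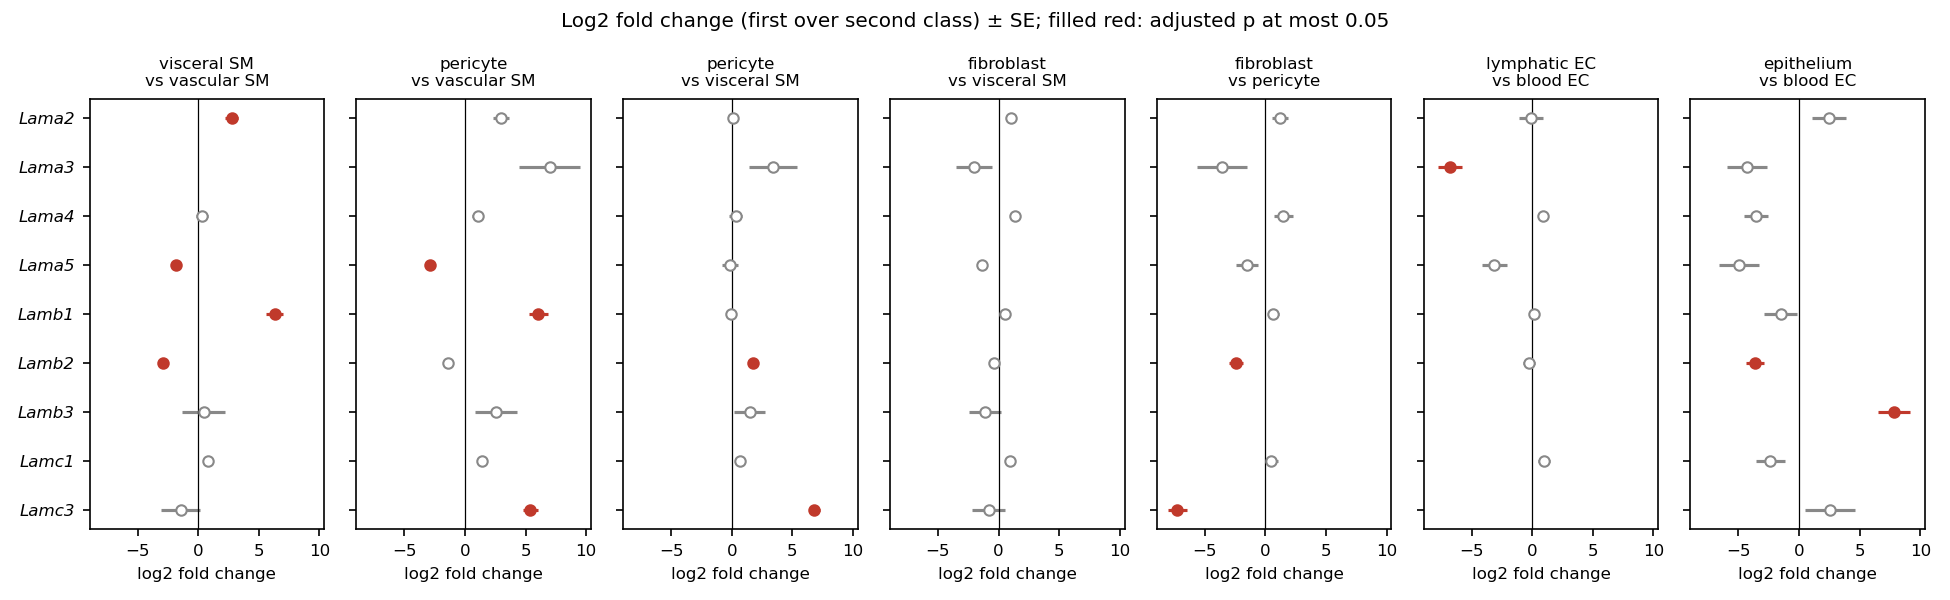
Log2 fold change of each tested chain in 7 comparisons of classes within mice, as points with bars of 1 SE, filled red where the adjusted p was at most 0.05. Lamb1 is furthest to the visceral side (6.30) and Lamb2 furthest to the vascular side (-2.91) between the muscle classes, and Lamc3 points to pericytes in each comparison that includes them.

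Laminin receptors and the proteins that tie laminin into the matrix were followed as a list of 19 genes. Between visceral and vascular smooth muscle-like cells 3 of 18 tested genes were higher in visceral cells and 5 lower, while 10 did not pass, where 5.56% of all genes tested were called. Nid1 (nidogen, which links the gamma 1 chain to collagen IV) rose by 2.28 ± 0.39 (adjusted p = 0.000194), and Col4a1 and Hspg2, a collagen IV chain and perlecan, rose by 1.22 and 1.34. Itga7, the integrin alpha chain of muscle that binds laminin-211, fell by 3.99 (adjusted p = 1.72e-09), from 1133 and 1258 CPM in vascular to 62.5 and 107.03 CPM in visceral cells of 20GG79:1 and 20GG95:3. Bcam, a receptor for the alpha 5 chain, fell by 4.74 (adjusted p = 1.39e-07) and Mcam, a receptor for alpha 4 laminins, by 1.97 (adjusted p = 7.64e-06). The median log2 fold change of the list was 0.18 beside 0.19 for all genes. Without the block 4 of the 8 calls were kept (Nid1, Itga7, Bcam and Agrn), and with the shared spread 1, Bcam. The Hspg2 call was also lost with DESeq2, without either plate of 20GG95:3, with the finer clusters and without cells holding markers of another class, and the Col4a1 call with DESeq2.

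Against vascular smooth muscle, pericyte-like cells were higher in 2 of 18 list genes and lower in 0, and 16 did not pass, where 0.648% of all genes tested were called. The 2 were the collagen IV chains Col4a1 (1.94 ± 0.27, adjusted p = 0.0300) and Col4a2 (1.88 ± 0.26, adjusted p = 0.0310). Both calls were lost without either plate of 20GG95:3 and with the shared spread. Against visceral muscle 2 of 19 rose, Bcam (3.17 ± 0.47, adjusted p = 0.0119) and Itga7 (3.29 ± 0.39, adjusted p = 0.00466), and 0 fell, where 1.42% of all genes tested were called. The Bcam call was lost without the block and both were lost with the shared spread. Fibroblasts were lower than pericytes in Bcam (-6.20), Itga7 (-6.65) and Mcam (-4.82), 3 of 19 genes, where 0.86% of all genes tested were called, and 0 of the 3 calls were kept without the block. They were lower than visceral muscle in Mcam alone (-3.44), 1 of 19 genes beside 1.68% of all genes tested, and that call was lost with the shared spread. Their Bcam levels were 7.38 to 24.3 CPM, while pericyte-like cells had 647 to 1616 CPM. The medians of the list were 0.52, 1.14, -0.42 and 0.39 in these 4 comparisons, in the order given, beside 0.13, -0.25, 0.34 and -0.00334 for all genes.

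In the endothelia, lymphatic cells were higher in 1 and lower in 6 of 16 list genes, where 3.69% of all genes tested were called. Sdc1 (syndecan 1, a heparan sulfate proteoglycan) rose by 5.37 (adjusted p = 0.00392), while Bcam (-6.24, adjusted p = 1.47e-06), Sparc (-3.67, adjusted p = 0.000180) and Mcam (-3.95, adjusted p = 0.00701) fell. Bcam stood at 1090 to 1794 CPM in blood and 7.38 to 36.5 CPM in lymphatic endothelium-like cells, without overlap. Epithelium-like cells were higher than blood endothelium in 2 of 17 and lower in 4, where 8.22% of all genes tested were called. Those higher were the syndecans Sdc4 (6.30) and Sdc1 (5.38), and Bcam (-6.11), Hspg2 (-5.02) and Mcam (-4.44) were among those lower. The Hspg2 and Mcam calls were lost without the block. The medians of the list were -1.02 and -1.87 beside -0.66 and -0.19 for all genes.

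Clusters inside a class varied too, and are given as a description without a test, since clusters partly follow mice. Visceral cluster 5 held 95 cells of 20GG95:3, 6 of 20GG79:1 and 1 of 20GG79:6. It had 115.5 CPM of Lamb1 and 691 CPM of Lamb2 in 20GG95:3, and 201.65 and 1163 CPM in 20GG79:1, nearer the vascular pattern than the visceral sums as a whole. Its pericyte markers summed to 2662 CPM, against 606 to 1206 CPM in the other visceral clusters, and 6 of the 9 reached 10 CPM. Its markers of interstitial cells of Cajal summed to 1360 CPM, against 26.8 to 358.2 CPM, but only 1 of the 5 reached 10 CPM. The part of these markers was not tested. Pericyte cluster 4, 32 cells of 20GG95:3, had 281.1 CPM of Lamb1, against 1256 CPM in the 58 cells of cluster 1 from that mouse, while Lamc3 was at 817 and 1213 CPM. Its visceral and vascular muscle markers summed to 7075 and 6975 CPM, against 2256 and 3027 CPM in cluster 1. Its own pericyte markers summed to 6946 CPM, below the 12013 CPM of cluster 1, so its name is less sure. They also lay below both muscle sums, but those come from other genes. The part of these markers in the difference was not tested. Fibroblast cluster 6 had more Lamb1 and Lama5 than cluster 8 in both dual-line mice that held them. Lamb1 was at 2050 and 993 CPM in 20GG79:1 and at 1929 and 1405 CPM in 20GG79:6, and Lama5 at 245.4 and 47.05 CPM and at 142.03 and 17.3 CPM.

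The genes most like each chain were ranked by Pearson's r of log2(CPM + 1) over the 31 sums of a mouse and a class, among 12460 genes. The sums share mice, plates and classes, so r is a description. Lama2 was followed by Islr (0.953), Col6a3 (0.951) and Col6a1 (0.944), and Lama4 by Cnn3 (0.882), Pxdn (0.873) and Ehd2 (0.864). The genes most like Lama5 were Mcam (0.829), Osbpl5 (0.782) and Gnb4 (0.767). Lamb1 was followed by Nid1 (0.821), Ltbp4 (0.811) and Pxdn (0.789), and Lamb2 by Pear1 (0.842), Mfge8 (0.816) and Col4a2 (0.813). For Lamc1 they were Il11ra1 (0.853), Fstl1 (0.823) and Fkbp10 (0.818), and for Lamc3 Adra2a (0.873), Il2ra (0.838) and Palm2 (0.831). Lama3 was followed by Thrsp (0.892), Mcf2l (0.890) and Upp1 (0.879), and Lamb3 by Cyp4f40 (0.967), Tnip3 (0.966) and Ms4a12 (0.963). Among the chains themselves, Lama5 with Lamb2 (0.738) and Lama4 with Lamb1 (0.704) had the highest r.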

How the data were processed

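The authors deposited raw counts, not normalized, of 46517 Ensembl gene identifiers and 92 spike-ins in each cell. The submitters' processing notes name bcl2fastq, Bowtie, Bowtie2, featureCounts and Subread and the builds GRCm38 and mm10, without versions. The sources used here do not give cell filters, duplicate removal or strand use. Symbols came from GENCODE for GRCm38 and were found for 46005 identifiers.

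The genes, lists, contrasts and tests were chosen with earlier results of these data known, and support nothing independently. Cells needed 20000 gene counts and 1000 detected genes, and 0 were removed. Clustering used 2055 genes without the tested lists, 20 principal components, 15 neighbours and Leiden resolution 1 (scanpy 1.11.5, igraph 0.11.9). A cluster was named where at least 3 markers were detected in 25% of its cells and its own markers among its top 10 genes outnumbered those of other classes. The second condition was added after the data were seen and left 1 cluster unnamed. No doublet caller was run.

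Counts were summed per mouse and class (at least 5 cells) and tested with edgeR 4.0.16 in R 4.3.3, using the mouse as a block, TMM factors, filterByExpr and robust quasi-likelihood fits. The block comes from the design, because both classes of a comparison were taken from the same animal. The SE is the fold change over the square root of F, and the threshold was an adjusted p of 0.05. Each cell was thinned to 40000 counts before shares of cells were taken, with 95% Clopper-Pearson (exact) intervals over the pooled cells of a class. The text names all 9 chains, the 3 genes most like each, and up to 3 list genes per direction and contrast by smallest p among those called. Results that need 1 further gene are not reported here. Scripts were tested on simulated data. The alternatives covered scaling, filter, DESeq2 1.42.0, block, clustering, cell minimum, plates, shared spread, mice left out, gene length and presence level.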

Additional observations from a re-analysis of the deposited data

Results flagged for a closer look

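For 8 of 36 groups of 4 to 6 mice, the highest mouse stood apart from the others, where chance gives about 1 in 20 for independent groups. These groups share mice and some levels lie near 0 CPM, so an excess over chance was not measured. The mouse 20GG79:6 gave 6 of the 8. In its epithelium-like cells Lama5 was at 419.7 CPM (median of the 4 mice 0.294 CPM) and Lamc1 at 351.5 CPM (median 40.2 CPM), beside fibroblast markers at 7096 CPM. Lamc3 was at 30.8 CPM in its fibroblast-like cells (median of 4 mice 0.545 CPM), at 3.32 CPM in its lymphatic endothelium-like cells (median of 5 mice 0 CPM) and at 1.68 CPM in its blood endothelium-like cells (median of 6 mice 0.166 CPM). Lamb2 was at 632 CPM in its lymphatic endothelium-like cells (median of 5 mice 205.4 CPM), a sum of 5 cells with fibroblast markers at 2169 CPM. The part of these markers was not tested. The remaining mice were 18CB109:10, with Lama4 at 1454 CPM in 5 lymphatic endothelium-like cells (median of 5 mice 350.7 CPM), and 19CB4:5, with Lama2 at 16.8 CPM in blood endothelium-like cells (median of 6 mice 2.90 CPM), 12 of which held markers of another class.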

How the results depend on the processing

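Of 14 calls, 14 were kept without a filter and at Leiden resolution 2, 13 at resolution 0.5, 13 without cells that held other classes' markers, 12 with RLE factors, 12 with DESeq2, 11 without the larger plate of 20GG95:3, 10 without its smaller plate, 6 without the replicate block and 4 when all classes shared 1 spread. All kept their direction. The mouse 20GG95:3 did not enter the comparisons of fibroblast-like, lymphatic or epithelium-like cells, so calls there could not be lost with its plates. The lymphatic and epithelial comparisons also stayed the same at either other Leiden resolution. With sums of at least 10 cells 12 of 12 were kept, and epithelium could not be compared. That minimum changed only the fit of lymphatic against blood endothelium, which was left with 2 mice (17E61:24 and 19CB27:3). In the other comparisons the main fit was repeated, so their calls could not be lost.

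Numbers of chains called that moved by over 1.5 times are given by comparison. Visceral against vascular muscle (4 chains) gave 2 without the replicate block, 1 with the shared spread and 0 to 0 when a mouse was left out. Pericyte against vascular muscle (3) gave 5 without a filter, 5 with DESeq2, 1 without the replicate block, 0 without either plate of 20GG95:3, 0 with the shared spread and 0 to 0 without a mouse. Pericyte against visceral muscle (2) gave 1 with RLE factors, DESeq2, resolution 0.5 or no replicate block, 0 with the shared spread and 0 to 0 without a mouse. Fibroblast against visceral muscle (0) gave 1 without a filter and 2 with DESeq2. Fibroblast against pericyte (2) gave 1 with RLE factors, DESeq2 or without the mixed cells, 0 without the replicate block, 0 with the shared spread and 0 to 0 without a mouse. Lymphatic against blood endothelium (1) gave 2 without a filter, with DESeq2 or with the shared spread, and 1 to 2 without a mouse. Epithelium against blood endothelium (2) gave 5 without a filter, 5 with DESeq2, 1 without the replicate block and 2 to 4 without a mouse. Fits without a mouse used the shared spread, and a lone mouse was then assumed to vary like the other groups. Lamb1 in fibroblast against visceral muscle gave -0.00272 to 0.35 without a mouse. Of 31 chain and comparison pairs with an unadjusted p above 0.05, 11 changed sign under some alternative.

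Possible trimers moved with the presence level. At 10 CPM per kb fibroblasts had 0 (4 at 10 CPM), glia 2 (6), pericytes 0 (9) and vascular muscle 1 (3). Vascular muscle had 5 at 5 CPM and 5 to 6 with either mouse left out, and fibroblasts had 8 with sums of at least 10 cells. The number called among all genes tested moved by over 1.5 times under several alternatives. DESeq2 called 1485 between the muscle classes, where edgeR called 816, and 886 for pericyte against vascular muscle, where edgeR called 84. With the shared spread these were 13 and 0. The causes of these changes were not tested.

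Vascular muscle in 20GG79:1 rested on 16 cells, pericytes in 20GG79:6 on 12, and several lymphatic, fibroblast, epithelial and immune sums on 5 or 6, so levels near 10 CPM there are weakly set.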

Other observations

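The 25 unnamed cells of 20GG79:6 held 7 of the 9 laminin chains at 257.7 CPM or more. Lamb1 was at 978 CPM, Lama5 at 871 CPM, Lamb2 at 641 CPM, Lamc1 at 405.2 CPM, Lama4 at 298.3 CPM, Lama2 at 275.6 CPM and Lamc3 at 257.7 CPM. Their Lamc3 level lay between that of the pericyte-like cells (1155 CPM) and that of the visceral smooth muscle-like cells (14.7 CPM) of that mouse. Immune markers summed to 517 CPM in these cells.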
